A study of Mus musculus with 54 samples.

Results

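The genes described are the 9 inward rectifier potassium channel genes *Kcnj2*, *Kcnj3*, *Kcnj4*, *Kcnj6*, *Kcnj8*, *Kcnj9*, *Kcnj10*, *Kcnj11* and *Kcnj16*, chosen by name among the 30031 genes of the count table. All 9 were found, and all 9 had at least 1 read in more than 6 replicates, as did 18941 genes in all. The libraries come from the suprachiasmatic nucleus (SCN) of male C3H/HeH mice aged 10-12 weeks, which were kept under a light/dark cycle, and was cut out of Nissl-stained sections by laser. There were 6 timepoints in zeitgeber time (ZT2, ZT6, ZT10, ZT14, ZT18 and ZT22), with 3 replicates each, A, B and C, each pooled from 5 animals. No mouse was treated and all carried the same genotype, so time is the only factor. The 54 deposited lane samples are 3 lanes of each of these 18 replicates, already added up by the authors.

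Inward rectifiers let potassium into a cell more easily than out of it, hold the membrane near its resting potential and so set how readily a neuron fires. Neurons use strong constitutive rectifiers (*Kcnj2*, *Kcnj4*), channels opened by the βγ subunits of G-proteins (*Kcnj3*, *Kcnj6*, *Kcnj9*) and ATP-sensitive channels (*Kcnj11*). Astrocytes and other glia clear the potassium that firing neurons release through channels of *Kcnj10* and its partner *Kcnj16*, while *Kcnj8* forms the ATP-sensitive channel of pericytes and smooth muscle. The SCN is the circadian pacemaker of the brain, and its neurons are more depolarised and fire faster by day than by night. *Kcnj2*, *Kcnj3*, *Kcnj4*, *Kcnj6*, *Kcnj9* and *Kcnj11* are called neuronal here, *Kcnj10* and *Kcnj16* glial, and *Kcnj8* mural, by textbook knowledge. In dissected tissue, fewer cells of a type and less RNA per cell cannot be told apart.

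Reads on genes ranged from 15412981 (ZT18 replicate C) to 35820945 (ZT14 replicate A) per replicate, with a median of 25075231. A principal component plot of the study, whose legend names timepoint and sequencing batch, set the libraries in 3 clusters. It placed ZT2 beside ZT22, ZT10 beside ZT6, and ZT18 beside ZT14. Differences between clusters therefore cannot be told apart from batch, whereas the steps from ZT18 to ZT14, from ZT2 to ZT22 and from ZT10 to ZT6 lie inside a cluster. ZT18 replicate C stood apart among the neuronal genes, with the lowest value of all 18 replicates for *Kcnj3* and 0 reads for *Kcnj11*. The 6 markers of SCN neurons summed to 1344 to 4541 CPM (reads scaled to a common library size) per replicate, with none at 0. In the second deposited table, 40 of the 54 values of these genes at ZT6 and ZT10 stood for other read numbers than in the count table, against 0 at the other timepoints. Among all genes with reads that both tables hold, 34.8% to 45.4% had the same number per replicate at ZT6 and ZT10. At the other timepoints at least 94.8% did. The differences ran from 33 against 32 reads (*Kcnj2*, ZT6 replicate A) to 1253 against 957 (*Kcnj9*, ZT6 replicate B). *Kcnj11* had 17 against 0 in ZT6 replicate B.

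4 of the genes lie side by side in pairs, each a neuronal beside a glial gene, and their promoters are shown because the members of a pair can be compared directly. On GRCm38, *Kcnj9* (chr1:172320501-172329318, minus strand) and *Kcnj10* (chr1:172341210-172374085, plus strand) point away from each other, with 11892 bases between their starts. *Kcnj16* (chr11:110968033-111027968) and *Kcnj2* (chr11:111066164-111076821) follow each other on the plus strand, 38196 bases apart. The windows below, from RefSeq on GRCm38.p6, run from 250 bases before to 50 bases after a start, 5′ to 3′ on the strand of the gene, and come from the reference strain and not from C3H/HeH. Capitals mark the E-box CACGTG, through which CLOCK and BMAL1 act, or AGGTCA, the core letters bound by ROR and REV-ERB receptors, read on either strand. The windows of *Kcnj9* and *Kcnj10* hold neither.
Kcnj9 (chr1:172329273-172329572): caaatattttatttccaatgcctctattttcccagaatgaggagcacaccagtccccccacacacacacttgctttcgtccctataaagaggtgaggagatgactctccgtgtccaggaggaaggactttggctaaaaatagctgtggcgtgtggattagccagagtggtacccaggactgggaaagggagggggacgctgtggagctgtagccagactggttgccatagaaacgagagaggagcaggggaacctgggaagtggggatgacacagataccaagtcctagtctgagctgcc
Kcnj10 (chr1:172340960-172341259): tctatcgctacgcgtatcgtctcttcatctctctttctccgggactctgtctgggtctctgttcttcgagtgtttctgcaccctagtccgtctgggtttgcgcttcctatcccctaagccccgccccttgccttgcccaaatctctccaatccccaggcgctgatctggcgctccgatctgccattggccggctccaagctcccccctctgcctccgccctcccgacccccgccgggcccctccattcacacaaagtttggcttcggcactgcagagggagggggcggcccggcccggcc
Kcnj16, the first of its 4 windows (chr11:110967783-110968082): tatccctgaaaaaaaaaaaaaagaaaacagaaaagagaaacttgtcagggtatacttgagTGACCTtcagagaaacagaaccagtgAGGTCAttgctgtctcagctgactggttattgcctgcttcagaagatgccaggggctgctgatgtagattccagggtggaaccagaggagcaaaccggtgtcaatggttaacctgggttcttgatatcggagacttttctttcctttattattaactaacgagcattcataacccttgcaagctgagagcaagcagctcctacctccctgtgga
Kcnj2 (chr11:111065914-111066213): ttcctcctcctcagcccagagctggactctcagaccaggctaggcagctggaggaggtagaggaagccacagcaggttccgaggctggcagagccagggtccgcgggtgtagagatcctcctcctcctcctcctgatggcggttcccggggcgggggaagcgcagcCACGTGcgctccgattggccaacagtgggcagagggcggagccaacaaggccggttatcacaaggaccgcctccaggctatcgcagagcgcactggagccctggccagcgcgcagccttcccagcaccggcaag

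Among the 12 windows of the 8 genes with an entry, CACGTG was found in 1, that of *Kcnj2*, 84 bases before the start, and it was present in 7.15% of the 32851 windows of all genes. AGGTCA was found in 1 window, where it begins 190 and 164 bases before the start of *Kcnj16*, and it was present in 16.3% of all windows. Neither the cAMP response element TGACGTCA (1.79% of all windows) nor the D-box TTATGTAA or TTACGTAA (1.06%) was found in any of them. The shorter TGACG, which every full element contains, was in the windows of *Kcnj4*, *Kcnj6* and *Kcnj8* and in 20.8% of all windows. These are matches of letters and not sites of binding. *Kcnj11* has no entry. *Kcnj3* (chr2:55435970-55598145), *Kcnj4* (chr15:79483714-79505241), *Kcnj6* (chr16:94748636-94997701), *Kcnj8* (chr6:142564837-142571614) and *Kcnj11* (chr7:46093953-46100764) each lie on a chromosome that holds no other of the chosen genes. Genes beside them outside that choice were not looked up, apart from overlapping ones. *Kcnj3*, *Kcnj6* and *Kcnj9* overlap annotated genes on the opposite strand, which are not in the count table, and no strand setting of the counting was given, so their counts may hold reads of both.

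Per kilobase of exon, the glial *Kcnj10* had the highest level of the 9 genes, with a mean of 44.2 CPM per kb over the 18 replicates. *Kcnj9* followed with 12.96 CPM per kb, then *Kcnj16* with 6.50 and *Kcnj3* with 6.14. The remaining genes were far lower, from 1.05 CPM per kb for *Kcnj4* and 1.04 for *Kcnj2* to 0.772 for *Kcnj8*, 0.351 for *Kcnj11* and 0.262 for *Kcnj6*. The spread between replicates was smallest for the 4 genes with the highest levels. The biological coefficient of variation, edgeR's measure of that spread, was 0.170 for *Kcnj10*, 0.268 for *Kcnj16*, 0.316 for *Kcnj9* and 0.337 for *Kcnj3*, but 0.625 for *Kcnj2*, 0.657 for *Kcnj6*, 0.750 for *Kcnj4*, 1.09 for *Kcnj8* and 1.22 for *Kcnj11*.

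Of the 9 genes, 6 changed with time when the 6 timepoint means were compared by the quasi-likelihood test of edgeR (q under 0.05), namely *Kcnj2*, *Kcnj3*, *Kcnj6*, *Kcnj9*, *Kcnj10* and *Kcnj16*. The background was high, since 44.0% of all tested genes passed. JTK_CYCLE, which looks for a 24 hr wave, together with the time test called 5 of them cycling, all but *Kcnj3*, against 34.6% of all tested genes. The p of JTK_CYCLE was exact and corrected over its 6 lags, but not over genes. *Kcnj4*, *Kcnj8* and *Kcnj11* did not pass (q = 0.212, 0.947 and 0.195 by edgeR). A joint test of the 3 steps inside the clusters, added after the data were seen, called none of the 9 genes and 0.116% of all genes, although 1 of the 9 (*Kcnj3*) and 11.7% of all genes had an unadjusted p under 0.05. DESeq2 called *Kcnj3* in that joint test and no other member.

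**Figure D1:**
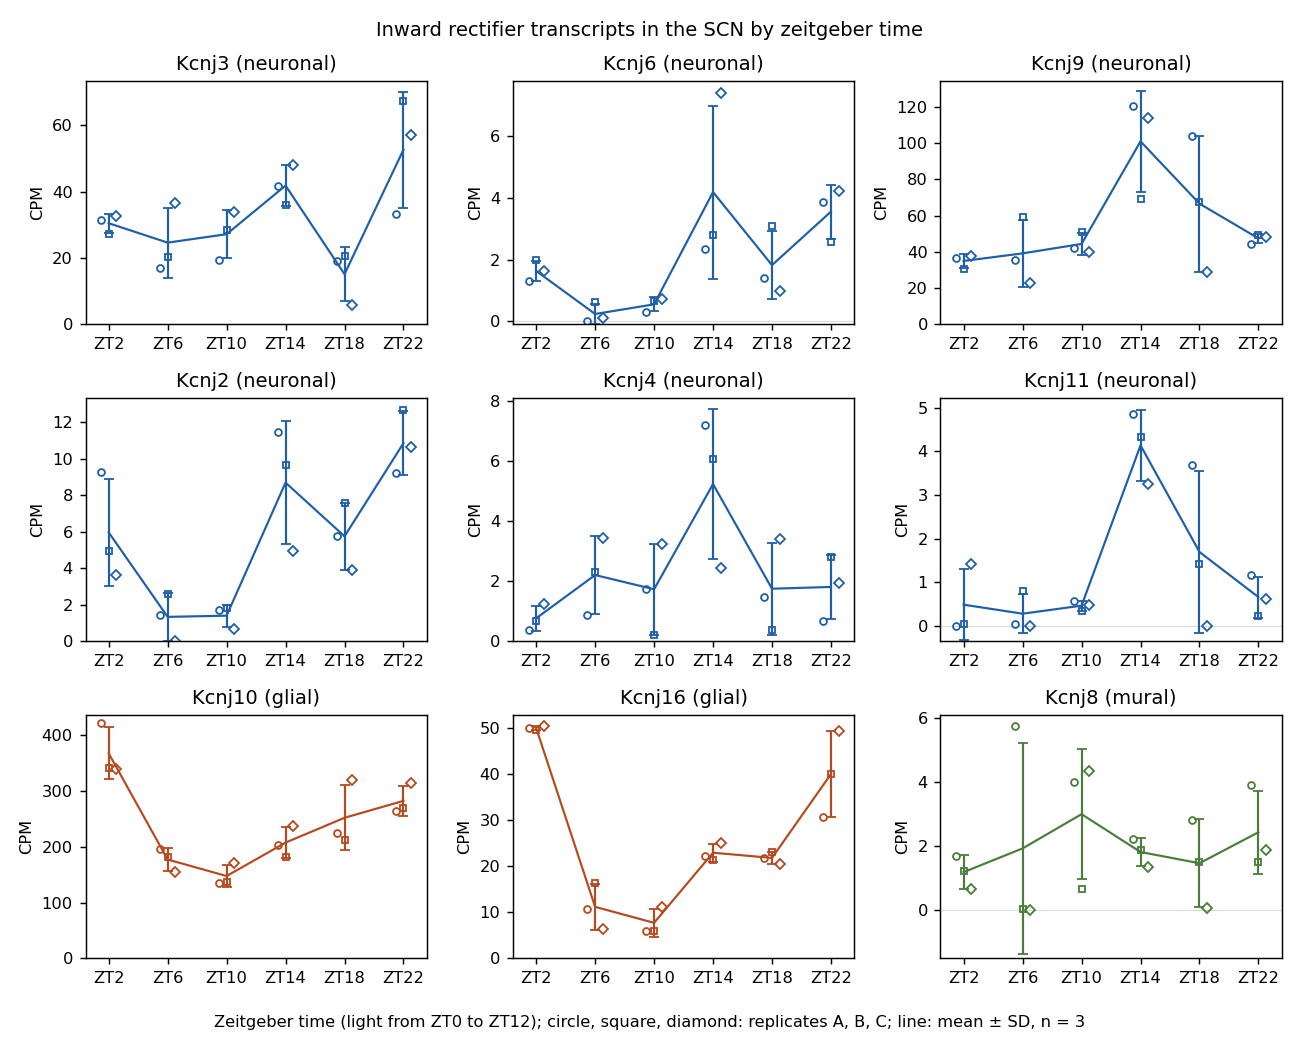
Each panel plots the CPM of 1 gene against zeitgeber time, with replicates A, B and C as circle, square and diamond and the line joining means ± SD (n = 3). *Kcnj2*, *Kcnj6* and *Kcnj16* have their 6 replicates of ZT6 and ZT10 below all others, while *Kcnj3* is high at ZT14 and ZT22 and low between them.

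*Kcnj3* encodes the G-protein-gated subunit that most neuronal channels of this kind contain. Its CPM in replicates A, B and C was 31.4, 27.4 and 32.8 at ZT2, 17.05, 20.2 and 36.8 at ZT6, and 19.5, 28.3 and 33.8 at ZT10. By night it was 41.6, 35.9 and 48.1 at ZT14, 19.1, 20.6 and 5.80 at ZT18, and 33.4, 67.5 and 57.2 at ZT22. All replicates of ZT14 lay above those of ZT18, as for 11.6% of all tested genes, and all of ZT22 above those of ZT2, as for 5.98%. No member had the opposite separation, ZT18 above ZT14, which 10.2% of all genes had. *Kcnj3* is the only one of the 9 genes with both separations, which 1.09% of all tested genes had. The order of the means ran from ZT22 (52.7 ± 17.5 CPM, SD, n = 3) through ZT14 (41.9 ± 6.06), ZT2, ZT10 and ZT6 to ZT18 (15.2 ± 8.15), and only the neighbours ZT14 and ZT2 in that order did not overlap. The change with time passed at q = 0.0153 by edgeR, but not without ZT22 replicate B (q = 0.0515 by edgeR).

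The step from ZT18 to ZT14 was 1.46 ± 0.40 (log2, SE) for *Kcnj3* and that from ZT2 to ZT22 was 0.79 ± 0.39, neither past the threshold in edgeR (q = 0.0992 and q = 1). Their mean, the contrast of ZT14 and ZT22 with ZT18 and ZT2 that both clusters share equally, was 1.12 ± 0.28 with q = 0.0974 by edgeR. DESeq2 gave q = 0.0122 for ZT14 over ZT18 and q = 0.00745 for the mean of both steps. Without ZT18 replicate C the step to ZT14 was 1.08 (q = 0.202 by edgeR) and the mean of both steps 0.93 (q = 0.0930 by edgeR). The difference between the steps, 0.67 ± 0.55, did not pass (q = 0.890 by edgeR). The exact p of JTK_CYCLE was 1 for *Kcnj3*, so no 24 hr wave was called.

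*Kcnj9*, a G-protein-gated subunit found in neurons with *Kcnj3* and *Kcnj6*, had its highest values in early night. Its CPM was 36.6, 30.8 and 37.6 at ZT2, 35.5, 59.3 and 22.7 at ZT6, and 42.3, 51.0 and 39.9 at ZT10. It then read 120.1, 68.9 and 113.5 at ZT14, 103.6, 67.2 and 28.8 at ZT18, and 44.4, 49.6 and 48.3 at ZT22. Every ZT14 replicate stood above every replicate of ZT2, ZT6, ZT10 and ZT22, whereas the range of ZT18 overlapped that of every other timepoint. ZT2, ZT6, ZT10 and ZT22 lie in other clusters than ZT14, so that separation cannot be told apart from batch. Its share over all tested genes was not counted. ZT22 lay above ZT2 in all replicates, as for 5.98% of all tested genes. The mean at ZT14 (101 ± 27.8 CPM) was 2.88-fold that at ZT2 (35.0 ± 3.69), and the gene changed with time (q = 0.0123 by edgeR) and was called cycling with its peak at ZT14 (exact JTK_CYCLE p = 0.0120). That call was lost without ZT14 replicate A (q = 0.0619 by edgeR) or without ZT14 replicate C (q = 0.0532 by edgeR). The step from ZT18 to ZT14, 0.60 ± 0.36 (log2, SE), fell to 0.24 without ZT18 replicate C.

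*Kcnj6* encodes the G-protein-gated subunit that carries channels to the surface and can form them alone. It was the lowest of the 9 per kilobase, with CPM of 1.30, 1.98 and 1.62 at ZT2, 0, 0.616 and 0.095 at ZT6, and 0.291, 0.651 and 0.708 at ZT10. At night it was 2.34, 2.82 and 7.42 at ZT14, 1.41, 3.08 and 0.976 at ZT18, and 3.88, 2.57 and 4.23 at ZT22. The replicates of ZT6 and ZT10 lay below all 12 others, a separation shared with *Kcnj2* and *Kcnj16* and with 3.74% of all tested genes. *Kcnj6* changed with time (q = 0.0150 by edgeR) and ZT22 lay above ZT2 in all replicates, with a step of 1.12 ± 0.89 (log2, SE) that did not pass (q = 1 by edgeR).

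The make-up of the G-protein-gated group differed between timepoints. Per kilobase, *Kcnj9* held 83.0% ± 4.18 (SD, n = 3) of the summed level of *Kcnj3*, *Kcnj6* and *Kcnj9* at ZT18, and 52.0% ± 7.06 at ZT22. The share of *Kcnj3* was 15.6% ± 3.60 at ZT18 and 45.8% ± 7.77 at ZT22, and no replicate of either timepoint reached into the range of the other. ZT18 and ZT22 lie in different clusters, so this difference cannot be told apart from batch. At ZT2 the share of *Kcnj3* was 41.2% ± 0.23 and at ZT14 25.6% ± 3.78, while ZT6 held both the lowest and the highest replicate of the daytime, 21.8% and 57.1%. Inside the cluster of ZT14 and ZT18 the 3 shares at ZT14 (22.0% to 29.5%) lay above those at ZT18 (13.1% to 19.7%), ZT18 replicate C among them with 14.0%. *Kcnj6* never exceeded 2.94%. These shares are a description with no test.

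**Figure D2:**
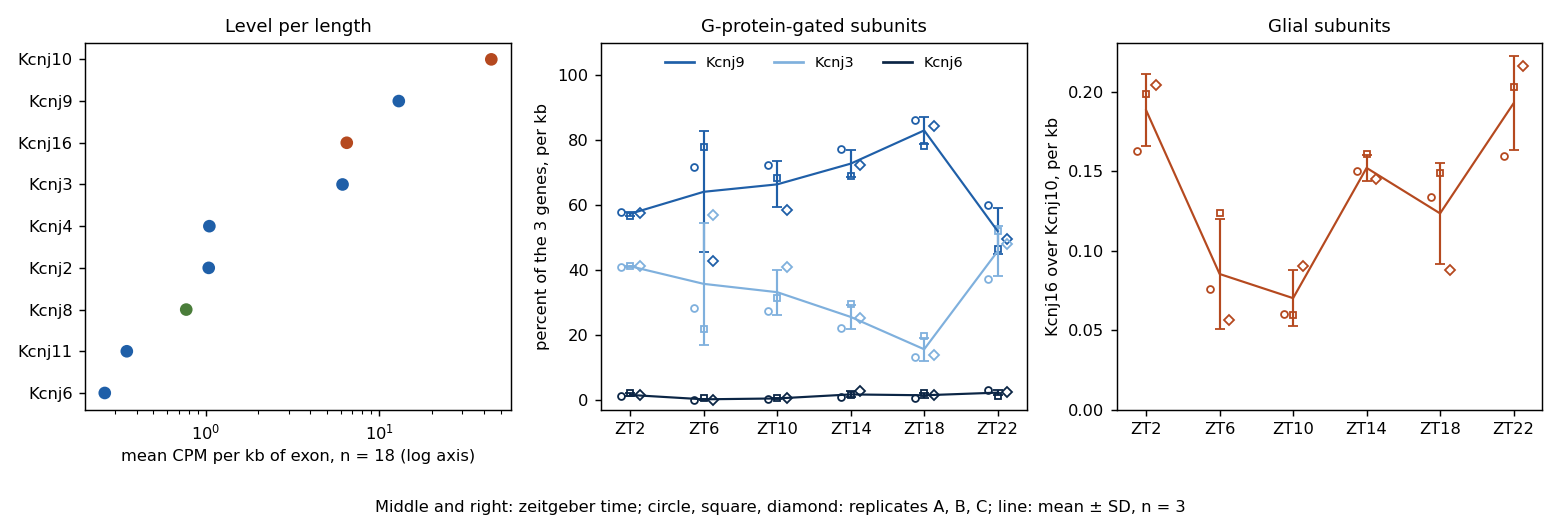
The left panel plots the mean level of each gene per kilobase of exon over 18 replicates on a log axis, the middle panel the share of *Kcnj9*, *Kcnj3* and *Kcnj6* in their summed level per kilobase, and the right panel the level of *Kcnj16* over that of *Kcnj10*, by zeitgeber time with replicates as symbols and means ± SD (n = 3). The share of *Kcnj3* is 15.6% at ZT18 and 45.8% at ZT22, which lie in different clusters of libraries. The level of *Kcnj16* over *Kcnj10* lies between 0.057 and 0.124 in the 6 replicates of ZT6 and ZT10.

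*Kcnj2* encodes a strong constitutive rectifier that steadies the resting potential. It is among the genes for which the study lists PCR primers, and the study checked twin-peaking genes by PCR. The plan of the tests took *Kcnj2* as a gene the study chose for twin peaks on these samples. The text of the study does not name it. If it was so chosen, its values here are no separate check of that pattern. The CPM of *Kcnj2* was 9.27, 4.95 and 3.66 at ZT2, 1.43, 2.61 and 0 at ZT6, and 1.70, 1.82 and 0.708 at ZT10. It was 11.4, 9.67 and 4.95 at ZT14, 5.76, 7.58 and 3.91 at ZT18, and 9.20, 12.7 and 10.6 at ZT22. The replicates of ZT14 and ZT18 overlapped, as did those of ZT22 and ZT2, and what set the gene apart was the low level at ZT6 and ZT10, a mean of 1.38 ± 0.91 CPM over 6 replicates against 7.22 ± 2.90 at ZT14 and ZT18 and 8.40 ± 3.44 at ZT22 and ZT2.

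The time test passed for *Kcnj2* (q = 0.0238 by edgeR), but not without ZT10 replicate C (q = 0.0532 by edgeR) or ZT22 replicate B (q = 0.0520 by edgeR), and JTK_CYCLE placed its peak at ZT22 (exact p = 0.0120). The mean of the steps to ZT14 and to ZT22 was 0.73 ± 0.56 (log2, SE) with q = 0.734 by edgeR, and within the clusters the joint test gave q = 0.895. *Kcnj4*, the other strong rectifier, was highest at ZT14 with 7.22, 6.07 and 2.45 CPM and lay between 0.217 and 3.45 CPM in the 15 other replicates. All its neighbouring timepoints overlapped, and the mean of its steps, 1.40 ± 0.66, had an unadjusted p of 0.0477 in edgeR and q = 0.463.

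*Kcnj11* encodes the pore of the ATP-sensitive channel of neurons, which closes when ATP is plentiful. It was highest at ZT14 (4.85, 4.33 and 3.24 CPM), and ZT18 replicates A and B held 3.68 and 1.41. The remaining 13 replicates held 0 to 1.43 CPM, and 3 of the 18 had no read (ZT2 replicate A, ZT6 replicate C and ZT18 replicate C). Its time test missed the threshold (q = 0.195 by edgeR), but passed without ZT2 replicate C (q = 0.0462 by edgeR) and with the reads recovered from the second deposited table (q = 0.0320 by edgeR). *Abcc8*, the sulfonylurea receptor with which *Kcnj11* assembles, did change with time (q = 0.00550 by edgeR). It was near 26.3 to 26.9 CPM in all 3 replicates of ZT14, between 0.0473 and 3.27 at ZT6, and at 56.0 in ZT18 replicate C, where *Kcnj11* had no read.

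Both glial genes were highest at ZT2 and lowest at ZT10. *Kcnj10*, the main channel through which astrocytes take up potassium, read 422, 342 and 339 CPM at ZT2, 196, 182 and 155 at ZT6, and 136, 137 and 171 at ZT10. At night it read 204, 182 and 237 at ZT14, 224, 213 and 319 at ZT18, and 264, 269.8 and 314 at ZT22. ZT2 lay above all other timepoints without overlap, of which only ZT22 shares its cluster. The share of all tested genes with such a separation was not counted. The order fell from ZT2 through ZT22, ZT18, ZT14 and ZT6 to ZT10, with each later neighbour overlapping the one before it. The mean at ZT2 (368 ± 46.8 CPM) was 2.49-fold that at ZT10 (148 ± 19.9), with q = 0.00011 for time by edgeR. JTK_CYCLE placed the peak at ZT22 (exact p = 0.000749). The time calls of *Kcnj6*, *Kcnj10* and *Kcnj16* held with any 1 replicate left out.

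*Kcnj16* encodes a subunit that is silent alone and makes the channel of *Kcnj10* sensitive to pH. It read 49.9, 49.4 and 50.4 CPM at ZT2, 10.8, 16.3 and 6.39 at ZT6, and 5.97, 5.95 and 11.2 at ZT10. It then read 22.3, 21.3 and 25.1 at ZT14, 21.8, 23.1 and 20.4 at ZT18, and 30.6, 39.9 and 49.3 at ZT22. The replicates formed 3 levels that did not overlap, which are the 3 clusters of libraries, so the levels cannot be told apart from batch. The highest was at ZT22 and ZT2, the middle one at ZT14 and ZT18 and the lowest at ZT6 and ZT10. The share of all tested genes with these 3 levels was not counted. The lowest level alone, ZT6 and ZT10 below all other replicates, was found for 3.74%. The mean at ZT2 (49.9 ± 0.52 CPM) was 6.47-fold that at ZT10 (7.72 ± 3.05), with q = 1.23e-05 for time by edgeR, the smallest of the 9. Inside the clusters no step passed, and *Kcnj16* differed between ZT14 and ZT18 by 0.07 ± 0.30 (log2, SE).

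At ZT22 both glial genes lay below ZT2 in all replicates, with steps of -0.38 ± 0.18 for *Kcnj10* and -0.32 ± 0.30 for *Kcnj16* (log2, SE), each with q = 1 by edgeR. Such a separation was found for 5.64% of all tested genes. The level of *Kcnj16* over that of *Kcnj10* per kilobase was 0.188 ± 0.023 (SD, n = 3) at ZT2, 0.193 ± 0.030 at ZT22, 0.152 ± 0.008 at ZT14 and 0.124 ± 0.032 at ZT18. It was 0.085 ± 0.034 at ZT6 and 0.070 ± 0.018 at ZT10. The ratio at ZT10 (0.060 to 0.090) lay below that at ZT2, ZT14 and ZT22 in all replicates, while ZT18 replicate C, at 0.088, fell into the range of ZT6 and ZT10.

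*Kcnj8*, the mural gene, showed no order in time. It read 5.73, 0.047 and 0 CPM in the replicates of ZT6 and 3.98, 0.651 and 4.34 at ZT10, which covered the range of all other timepoints (0.061 to 3.91 CPM), and all neighbouring timepoints overlapped (q = 0.947 by edgeR). Without ZT6 replicate A the time test gave q = 0.0434 by edgeR. *Abcc9*, which assembles with *Kcnj8*, did not pass either (q = 0.462 by edgeR), with 6.02 ± 1.23 CPM at ZT2, 0.949 ± 0.824 at ZT6 and no read in ZT6 replicate B or ZT18 replicate C.

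Neuronal and glial genes were then set against each other in the contrast that is balanced over the clusters of ZT14 with ZT18 and ZT22 with ZT2. All 6 neuronal genes had positive differences, from 0.52 ± 0.26 for *Kcnj9* to 1.40 ± 0.66 for *Kcnj4* (log2, SE), and both glial genes had negative ones, -0.33 ± 0.13 for *Kcnj10* and -0.12 ± 0.21 for *Kcnj16*. The median over the 9 genes was 0.73, against 0.01 over all tested genes, of which 51.3% were positive. No member passed in edgeR (0.148% of all genes did), 3 had an unadjusted p under 0.05 (*Kcnj3*, *Kcnj4* and *Kcnj10*) as did 10.6% of all genes, and DESeq2 called *Kcnj3* alone. None of the 9 passed for ZT14 against ZT18 (0.57% of all genes called, and 1 member with an unadjusted p under 0.05), ZT22 against ZT2 (0.0317%, and 1 member) or ZT6 against ZT10 (0.0475%, and 0 members) in edgeR, and DESeq2 called *Kcnj3* for the first and none for the others. The difference between the steps to ZT14 and to ZT22 passed for none either (0.0158% of all genes, 0 members with an unadjusted p under 0.05, and 0 by DESeq2).

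**Figure D3:**
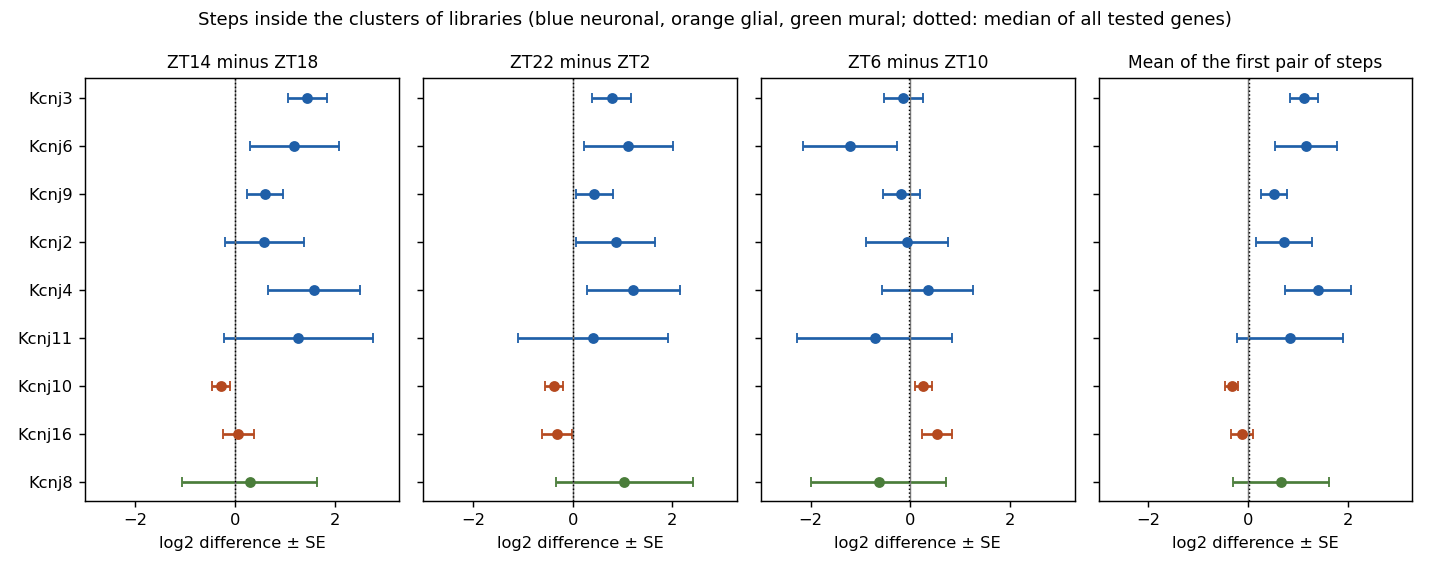
Each panel plots the log2 difference ± SE of the 9 genes for 1 step inside a cluster of libraries, and the right panel the mean of the steps to ZT14 and to ZT22, with neuronal genes in blue, glial genes in orange and *Kcnj8* in green. The dotted line is the median of all tested genes, and in the right panel the 6 neuronal genes lie at or above 0.52 and the glial genes at -0.33 and -0.12.

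Summed over the 6 neuronal genes, the level was 165 ± 32.5 CPM (SD, n = 3) at ZT14, 117 ± 21.9 at ZT22, 92.8 ± 46.6 at ZT18, and between 67.9 ± 16.1 and 75.8 ± 8.55 at the daytime timepoints. The glial sum went from 417 ± 46.8 CPM at ZT2 down to 155 ± 22.9 at ZT10 and back to 322 ± 36.1 at ZT22. The neuronal sum was 0.179 ± 0.019 of the glial sum at ZT2, 0.364 ± 0.087 at ZT6, 0.492 ± 0.076 at ZT10 and 0.714 ± 0.104 at ZT14. It was 0.367 ± 0.217 at ZT18 and 0.364 ± 0.065 at ZT22. All 3 replicates of ZT14 (0.628 to 0.830) lay above every other replicate. All 3 of ZT2 (0.168 to 0.201) lay below every other but ZT18 replicate C, which at 0.126 was the lowest of all. ZT2 and ZT14 lie in different clusters, so their difference cannot be told apart from batch. *Kcnj9* and *Kcnj10* have the highest mean CPM of their classes over the 18 replicates, although *Kcnj3* stood above *Kcnj9* at ZT22 (means of 52.7 and 47.4 CPM), and the ratio of the remaining genes had its highest mean at ZT10 (4.25) and not at ZT14 (2.81).

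**Figure D4:**
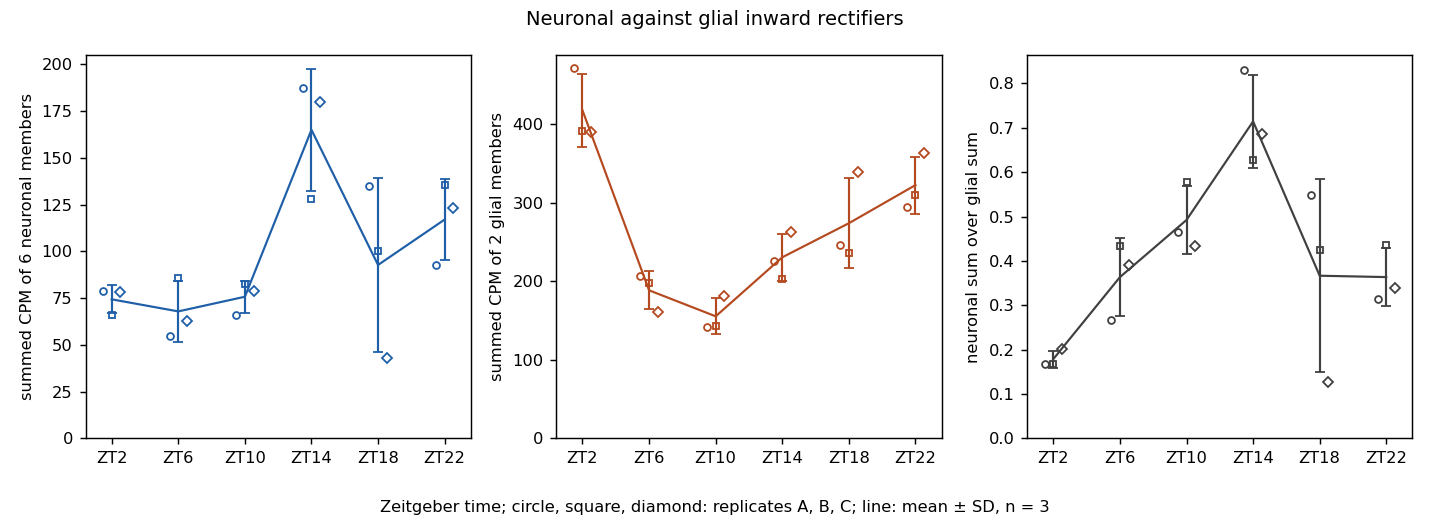
The panels plot the summed CPM of the 6 neuronal genes, the summed CPM of the 2 glial genes and the ratio of these sums against zeitgeber time, with replicates A, B and C as circle, square and diamond and means ± SD (n = 3). The ratio is lowest at ZT2 (0.179) and highest at ZT14 (0.714), which lie in different clusters of libraries. The low diamond at ZT18 is replicate C.

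Averaged over the light phase and the dark phase, 4 genes differed and all were lower in the light, *Kcnj2* by -1.86 ± 0.47, *Kcnj6* by -2.32 ± 0.54, *Kcnj9* by -0.80 ± 0.21 and *Kcnj16* by -0.74 ± 0.18 (log2, light minus dark, SE). Of all tested genes, 23.8% were called in this contrast. It mixes the clusters, since ZT6 and ZT10 are both in the light, and what part the cluster had was not tested. *Kcnj16* had its highest mean at ZT2, which is in the light.

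Markers of cell types were read beside these results. The sum of 8 astrocyte markers lay between 3576 and 4038 CPM at ZT2, between 1106 and 2243 at ZT6, between 1908 and 2219 at ZT10 and between 3724 and 3892 at ZT22. It was low at ZT6 and ZT10 and high at ZT22 and ZT2, as were *Kcnj10* and *Kcnj16*. Of the 8, 6 changed with time, against 44.0% of all tested genes, and none was at 0 in any replicate. For light against dark 2 of the 8 were called higher in the light and 4 lower (23.8% of all tested genes were called). Per 1000 CPM of those markers, *Kcnj10* read 95.6 ± 8.79 CPM at ZT2, 111 ± 26.9 at ZT6 and 72.4 ± 15.0 at ZT10, and *Kcnj16* 13.02 ± 0.74, 6.67 ± 2.42 and 3.82 ± 1.79. At ZT14, ZT18 and ZT22 *Kcnj10* read 81.6 ± 2.25, 79.1 ± 27.4 and 74.6 ± 7.83, and *Kcnj16* 9.05 ± 0.71, 6.70 ± 0.42 and 10.5 ± 2.47. All 8 oligodendrocyte markers changed with time too (44.0% of all tested genes did), with another order. Their mean sums were 5069 CPM at ZT18, 4968 at ZT14, 3040 at ZT2, 2645 at ZT22, 1804 at ZT6 and 1701 at ZT10. The part of astrocyte or oligodendrocyte content in the glial result was not tested beyond these values.

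Of 6 general neuronal markers, 5 were tested, and their sum was 4547 to 6189 CPM at ZT14, 3634 to 4669 at ZT18, 6920 to 8034 at ZT22 and 6175 to 6753 at ZT2, so ZT14 and ZT18 overlapped and ZT22 lay above ZT2. The means were higher at ZT14 than at ZT18 and at ZT22 than at ZT2, as for the neuronal members. In edgeR 2 of the 5 were called for ZT14 over ZT18, against 0.57% of all tested genes called in either direction. For the mean of both steps 2 of the 5 were called, against 0.148%, and no member was called in either contrast. These calls rest on single replicates, since no gene at all was called in either contrast without ZT14 replicate A or without ZT18 replicate B. The 6 markers of SCN neurons had the opposite order of means, with 1668 CPM at ZT14 and 2078 at ZT18 (no overlap), and 2208 at ZT22 and 2390 at ZT2 (overlapping), and 1 of the 6 had a positive mean of the steps, with a median of -0.10 (log2). Markers of excitatory neurons of the telencephalon, which the SCN should lack, had the same order of means, with 99.8 to 212 CPM at ZT14, 25.3 to 63.8 at ZT18, 57.4 to 230 at ZT22 and 40.8 to 82.7 at ZT2. All 6 of them had positive steps to ZT14 and to ZT22, and *Neurod2* and *Emx1* were at 0 in 1 replicate each. In edgeR 1 of the 6 was called for ZT14 over ZT18 and 1 for the mean of both steps, and no marker of SCN neurons for either. Per 1000 CPM of neuronal markers, *Kcnj3* read 7.55 ± 0.50 CPM at ZT14, 3.43 ± 1.61 at ZT18, 6.84 ± 1.83 at ZT22 and 4.71 ± 0.57 at ZT2. *Kcnj9* read 17.9 ± 2.51, 15.0 ± 7.14, 6.25 ± 0.15 and 5.40 ± 0.74 on the same scale. The part of these marker lists in the result for the neuronal members was not tested. Mural markers, 8 genes of which only *Anpep* had a replicate at 0, summed to 172 to 330 CPM at ZT6 and 607 to 1060 at ZT2.

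**Figure D5:**
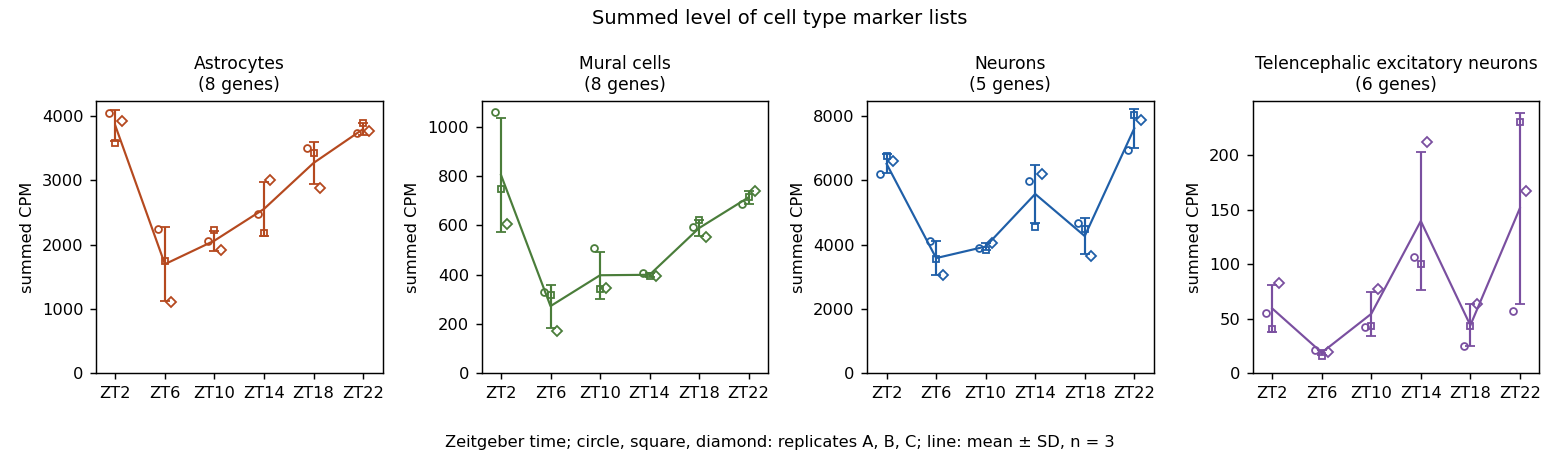
The panels plot the summed CPM of markers of astrocytes, mural cells, neurons and telencephalic excitatory neurons against zeitgeber time, with replicates A, B and C as circle, square and diamond and means ± SD (n = 3). Astrocyte markers are lowest at ZT6 and ZT10, and telencephalic markers are high at ZT14 and ZT22 (means of 139.5 and 151 CPM).

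Other genes of the pathway were taken from lists. Of the further *Kcnj* genes 4 of 6 were tested, and the lowest q of the time test was that of *Kcnj5*, the G-protein-gated subunit of the heart (q = 0.160 by edgeR), with 5.49 ± 4.22 CPM at ZT2 and 0.340 ± 0.383 at ZT10. Among 24 receptors that couple to inhibitory G-proteins and can open these channels, 15 changed with time, against 44.0% of all tested genes, and 21 had a positive mean of the steps to ZT14 and ZT22, against 51.3%, with a median of 0.66 (log2). Among those that passed the time test, the largest ranges of timepoint means were those of *Npy2r* (neuropeptide Y), *Htr1a* (serotonin), *Oprm1* and *Oprd1* (opioids), all with their lowest mean at ZT6. *Oprm1* and *Oprd1* were near the floor, with means of 0.707 and 0.565 CPM over all replicates. Each had 0 reads in 5 replicates, among them all replicates of ZT6. *Npy2r* read 19.4 ± 11.5 CPM at ZT22 and had 0 reads in 2 of 3 replicates of ZT6, and *Htr1a* read 6.61 ± 3.90 CPM at ZT18. *Cnr1*, the cannabinoid receptor and the only member of the list called for ZT14 against ZT18 (1.63 ± 0.30, q = 0.0245 by edgeR) and for the mean of both steps (1.13 ± 0.21, q = 0.0463 by edgeR), was named after its values were seen. Without ZT14 replicate A, or without ZT18 replicate B, no gene at all was called in either contrast.

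Of 13 G-protein subunits tested 12 changed with time (44.0% of all genes did), with the largest ranges in *Gng7*, *Gnb2*, *Gnb4* and *Gnb5*. *Gnb2* was highest at ZT6 (201 ± 52.6 CPM) and lowest at ZT2 (34.3 ± 12.95), *Gng7* highest at ZT14 (405 ± 264) and lowest at ZT10 (37.0 ± 8.60), and the median of the list for the mean of the steps was 0.08. Phosphoinositide enzymes make and break the lipid that all inward rectifiers need in order to conduct, and 4 of 11 changed with time, a share below the 44.0% of all tested genes, *Plcb1*, *Pi4ka*, *Pip5k1c* and *Pip5k1a*. *Pi4ka* read 218 ± 13.1 CPM at ZT2 and 66.7 ± 7.27 at ZT10, and *Plcb1* was the only gene of the list called for ZT14 over ZT18 (1.11 ± 0.24, q = 0.0470 by edgeR). Without ZT14 replicate A, or without ZT18 replicate B, no gene at all was called for that step.

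All 14 tested partners in trafficking and anchoring changed with time, as did 44.0% of all tested genes, with the largest ranges in *Lin7b*, *Dlg2*, *Kctd16* and *Cask*. The scaffold *Lin7b* read 57.6 ± 5.80 CPM at ZT14 and 5.20 ± 1.80 at ZT2, whereas its partner *Cask* read 324 ± 28.0 at ZT2 and 79.4 ± 18.4 at ZT10. Of 11 genes of astrocyte clearance 9 changed with time, against the same 44.0%, with the largest ranges in *Fxyd7*, *Slc1a3*, *Slc1a2* and *Glul*. *Slc1a3* and *Slc1a2* take up glutamate and *Glul* turns it into glutamine. The mean of *Slc1a3* was 2185 ± 306 CPM at ZT2 and 738 ± 46.3 at ZT10, the timepoints at which *Kcnj10* was highest and lowest, and *Glul* was lowest at ZT6 (265 ± 20.3).

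The genes most like a member were sought among 9607 other genes with at least 10 CPM, by the Pearson correlation of log2 CPM over the 18 replicates after centring each cluster. For *Kcnj9* they included *Trub2* (r = 0.91) and *Itgb5* (0.89), for *Kcnj10* *Sept2* (0.87), *Tbcel* (0.85) and *Zfp367* (0.83), and for *Kcnj2* *Yipf1* (0.96), *Clvs1* (0.91) and *Pdhx* (0.89). All genes of a replicate share its library and depth.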

How the data were processed

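Laser-captured SCN RNA was amplified with SMARTer and sequenced as paired ends on 3 lanes per replicate. The authors used GSNAP, the mm10 genome and HTSeq 0.5.4p1, per their processing notes. They deposited whole-number read counts per gene, without normalization, for 18 replicates, and a second table of normalized signal, the counts divided by a size factor per column, from which whole reads were recovered as an alternative. Amplified reads are not independent molecules.

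From the counts, edgeR 4.0.16 (R 4.3.3) gave TMM-scaled CPM, a quasi-likelihood F-test of time and the contrasts, in 1 fit to 18 replicates without covariates, with Benjamini–Hochberg q over 18941 genes and a threshold of 0.05. The SE of a contrast is its log2 difference over the square root of F. JTK_CYCLE (24 hr, 6 lags, exact null, Bonferroni over the lags and no correction over genes) was written in Python 3.11.15, with numpy 2.4.6. A gene was called cycling when that p and the q of the time test were both under 0.05. Alternatives were DESeq2 1.42.0, limma 3.58.1 (cosinor), other scalings and filters, and leaving out replicates. The tests were tested on simulated data. Levels per kilobase use the exons of GENCODE M21 on GRCm38. Genes named outside the 9 are, per list, up to 4 that passed the time test with the largest range of timepoint means, and *Kcnj5*, *Abcc8* and *Abcc9*, besides *Cnr1*, named after its values were seen, and the genes most like a member. The members and lists were chosen with earlier results of these data known. Replicates are pools of different mice. 1 gene that the rule on likeness names is not reported here.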

Additional observations from a re-analysis of the deposited data

How the results depend on the processing

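Members called beyond those of edgeR or lost were few. DESeq2 called 1 member, *Kcnj3*, for ZT14 against ZT18, for the mean of the steps to ZT14 and ZT22 and for the joint test within clusters, where edgeR called 0, and without the filter on low counts edgeR called 1, again *Kcnj3* (q = 0.0388 by edgeR), for the mean of the steps. The cause was not tested. With at least 10 reads in every replicate only 4 members could be tested, and 2 were called for light against dark and 3 as cycling. Over all genes the counts moved more. Over the other tools, scalings, filters and the block, 71 to 844 genes passed for ZT14 against ZT18 (edgeR 108), 13 to 460 for the mean of the steps (28), 4 to 34 for ZT22 against ZT2 (6), 2 to 252 for ZT6 against ZT10 (9), 2 to 98 for the difference of the steps (3) and 20 to 788 for the joint test (22), the highest each time by DESeq2.

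With any 1 replicate left out, 4 to 7 members changed with time, 4 to 6 were called cycling and 4 to 5 differed between light and dark, while 0 passed within the clusters. Over all genes, 0 to 225 were then called for ZT14 against ZT18 and 0 to 124 for the mean of the steps. The light against dark difference of *Kcnj8* ranged from -2.01 without ZT6 replicate A, where it passed (q = 0.0386 by edgeR), to 0.31 (log2), around 0.02 with all replicates. The neuronal over glial ratio had ranges of 0.168 to 0.185 (ZT2), 0.328 to 0.412 (ZT6), 0.450 to 0.522 (ZT10), 0.657 to 0.758 (ZT14), 0.275 to 0.487 (ZT18) and 0.327 to 0.388 (ZT22). Per kilobase it was 0.581 at ZT10 and 0.842 at ZT14. Without *Kcnj9* and *Kcnj10* it was 0.789 (ZT2), 3.24 (ZT6), 4.25 (ZT10), 2.81 (ZT14), 1.19 (ZT18) and 1.75 (ZT22), since *Kcnj16* alone is then the denominator.

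The letters A, B and C showed no sign of pairing the samples. Correlations ran from -0.46 to 0.19 (median -0.004) over 45 pairs with the same letter. Over 90 pairs with different letters they ran from -0.50 to 0.52 (median -0.005). With the replicate letter as a block 6 members changed with time, 5 were called cycling, 4 differed between light and dark and 0 passed within the clusters. *Kcnj2*, *Kcnj6*, *Kcnj8* and *Kcnj11* each had 0 reads in at least 1 replicate.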
